A study of Homo sapiens with 16 samples.

Results

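The genes described here are 10, the matrix metalloproteinases MMP1, MMP2, MMP9, MMP10, MMP12, MMP13 and MMP14 and their tissue inhibitors TIMP1, TIMP2 and TIMP3, out of 26229 listed genes. They were chosen by name as a family, after results from these same libraries were known, so the choice was selected on measured differences between treatments. MMP12 had already been seen among the genes that moved in opposite directions with siYAP and YAP5SA. The treatment differences of the members are therefore a description. Their adjusted p-values only say where each gene fell in the fit over all genes.

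RNA was sequenced from A431 cells, a human epidermoid carcinoma line, and HaCaT cells, a line of immortalised human keratinocytes, both grown in DMEM with 10% FCS. Each line gave 8 libraries in 4 groups. These were 1 library with a control siRNA (siCTRL), 3 with siRNA against YAP1 (siYAP), 1 with an empty expression vector and 3 with a vector expressing YAP5SA, a mutant of YAP whose inhibitory phosphorylation sites are changed to alanine. The siRNA libraries had no vector and the vector libraries had no siRNA. The labels give 2 transfections of siRNA 24 h apart and RNA 48 h after the second.

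Matrix metalloproteinases are zinc endopeptidases that cut collagens, other matrix proteins and many cell surface and secreted proteins. Most are secreted as inactive proenzymes, whereas MMP14 is anchored in the membrane and activates proMMP2 with TIMP2 as the bridge between them. TIMPs bind the active site and inhibit the enzyme. In skin, keratinocytes at wound edges and squamous carcinoma cells are known sources of several of these proteases.

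Read pairs assigned to genes ranged from 18115624 to 46791673 per library. Levels are given as CPM (counts scaled to a common library size with TMM factors), and 3 counts is taken as the floor of a library. YAP1 itself checked the labels. It was at 94.3 CPM in A431 siCTRL and 5.04 to 6.999 CPM in siYAP, and at 254 and 21.6 to 23.2 CPM in HaCaT. With YAP5SA it was at 1495 to 3245 CPM in A431 against 124 CPM in empty vector, and at 7549 to 22255 CPM in HaCaT against 423 CPM. The count covers the expressed mutant as well as the resident gene. EGFR, which is amplified in A431, was at 750.0 to 1358 CPM there and 298 to 557 CPM in HaCaT.

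The summed level of 8 epithelial and keratinocyte markers lay between 2100 and 6394 CPM, with none of the 8 at 0 in a group. The summed level of 8 fibroblast markers lay between 0.669 and 27.9 CPM and that of 6 macrophage and leukocyte markers between 12.7 and 174 CPM. CD68, a lysosomal protein, reached 170 CPM and made up most of the latter, whereas PTPRC, which defines leukocytes, was at or below 0.255 CPM in every library. RNA from fewer cells of a type and less RNA per cell cannot be told apart in bulk libraries.

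Each arm has a single control library, so the spread between control cultures could not be measured. The control libraries also differed from each other. Without a test, MMP1 was 22.9-fold higher in HaCaT empty vector than in HaCaT siCTRL, and MMP13 2.35-fold higher. MMP12 was 9.19-fold lower in HaCaT empty vector, TIMP3 9.25-fold, MMP10 4.21-fold and TIMP2 2.81-fold. In A431 the widest gaps between the controls were MMP13, 4.34-fold lower in empty vector, and TIMP3, 2.29-fold lower. KRT5 and KRT14, keratins of basal keratinocytes, were 5.69-fold and 5.71-fold higher in HaCaT empty vector. In A431 they were 2.61-fold and 2.75-fold higher in empty vector. ITGB4, from the same marker list, was 3.85-fold lower in HaCaT empty vector, and the other markers of that list were 1.24-fold to 1.93-fold higher. The fibroblast marker sum was 22.3 CPM in HaCaT siCTRL against 0.669 CPM in HaCaT empty vector. The part of these shifts in the member values was not tested.

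The levels differed by line and, for some members, by treatment, though several treatment calls were lost when a treated library was left out. MMP12, MMP1, MMP13 and MMP2 were higher in HaCaT cells, and MMP14 and all 3 TIMPs were higher in A431 cells. With siYAP, MMP12 rose in HaCaT cells and TIMP1 in A431 cells, and over both lines MMP12, MMP2 and TIMP1 rose. With YAP5SA, MMP12 and MMP13 fell and TIMP1 rose in HaCaT cells. In A431 cells no member passed the threshold with YAP5SA, nor did any other tested gene, YAP1 itself included. YAP1 was at 1495 to 3245 CPM with YAP5SA there, against 124 CPM in empty vector. The absence of calls in A431 therefore does not show an absence of response.

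**Figure D1:**
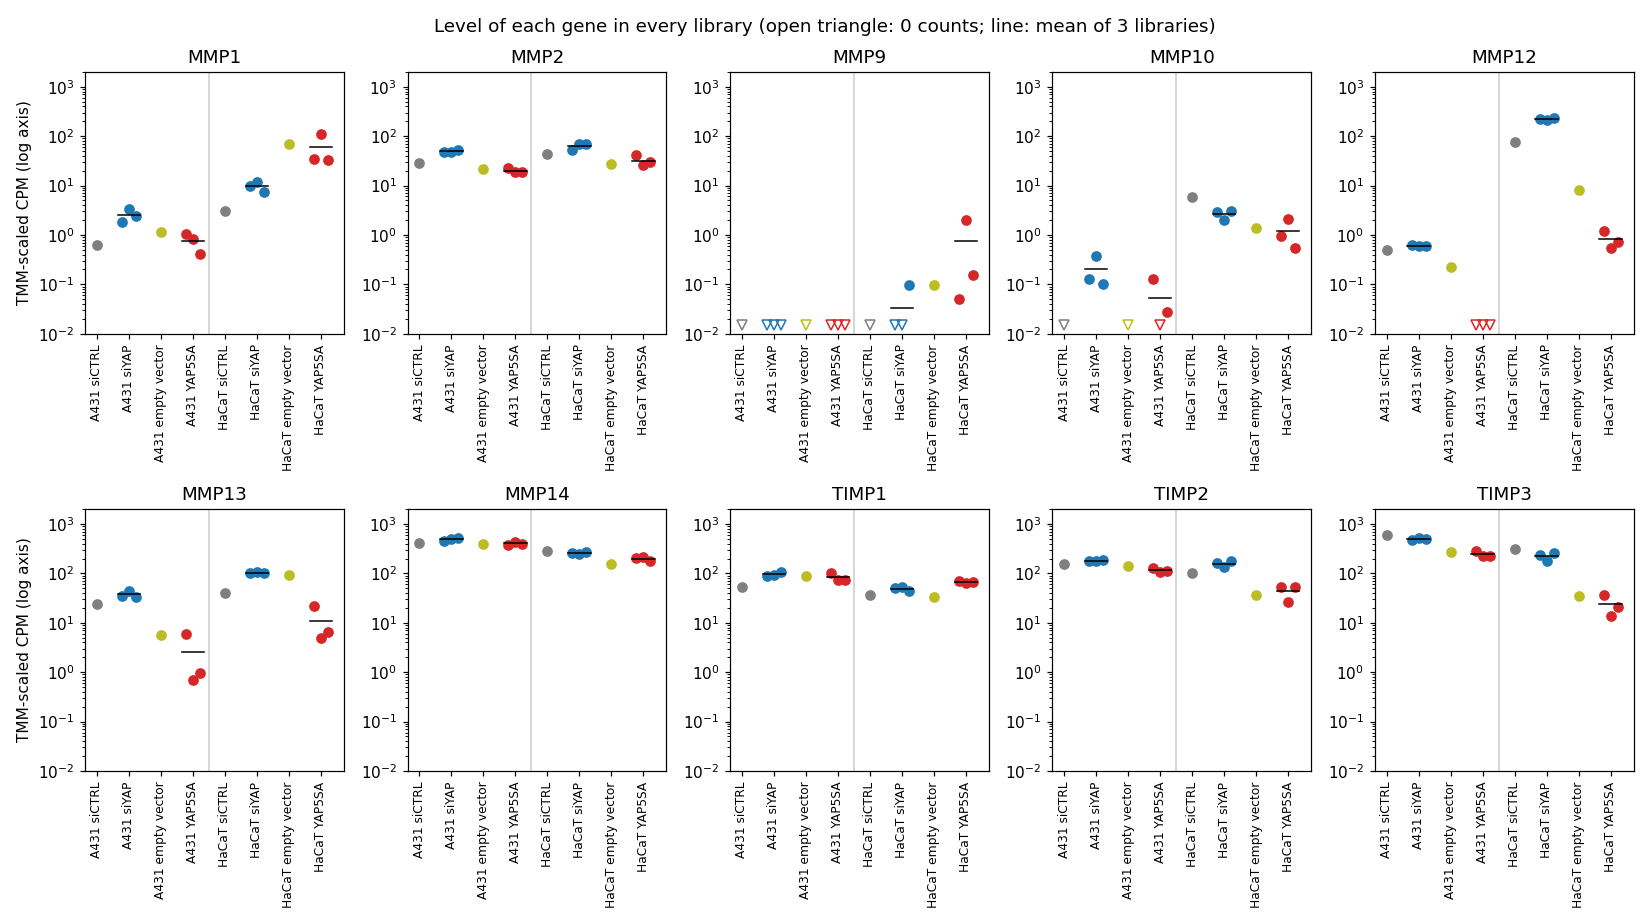
TMM-scaled CPM of the 10 genes in each of the 16 libraries, on a log axis, by line and treatment. Filled points are libraries, open triangles are libraries with 0 counts, and lines are means of 3 libraries. MMP12 in HaCaT spans from 216 to 238 CPM with siYAP down to 0.545 to 1.18 CPM with YAP5SA, and MMP9 is at 0 counts in every A431 library.

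The counts of calls were as follows, where a call needs an FDR under 0.05 and a logCPM above 1 in the edgeR quasi-likelihood fit. A mean above 10 counts per library was reached by 9 of the 10 members, and MMP9 was not tested. This mean and the logCPM are taken over all 16 libraries, so a gene low in A431 can pass through its HaCaT level. With siYAP against siCTRL, 1 member was called in A431, where 5.60% of all tested genes were called, and 1 in HaCaT, where 5.67% were. Over both lines, 3 members were called against 13.0% of all genes. With YAP5SA against empty vector, 0 members were called in A431, as were 0% of all genes, although MMP12 among the members and 828 genes in all had an unadjusted p under 0.05. There DESeq2 called 0 members and 3 genes in all. Without A431 YAP5SA replicate 1, edgeR called 87 genes in all (0.593%), and without replicate 2 or 3 it called 0. In HaCaT 3 members were called against 13.6% of all genes, and over both lines 1 against 2.04%. The median log2 fold change of the 9 tested members was 0.67 with siYAP over both lines and -0.0049 with YAP5SA, or 0.63 and -0.26 with genes at the floor set to their bound, where the medians over all genes were 0.038 and 0.034. As the members were chosen with treatment differences known, nothing is read from these shares.

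MMP12, the macrophage elastase, was at 76.4 CPM in HaCaT siCTRL, 221, 216 and 238 CPM in siYAP, 8.31 CPM in empty vector and 1.18, 0.545 and 0.714 CPM in YAP5SA. All siYAP libraries lay above their control and all YAP5SA libraries below theirs. The log2 fold change was 1.56 ± 0.23 (SE, n = 3 against 1, FDR = 0.00325) with siYAP and -3.34 ± 0.24 (SE, FDR = 0.000333) with YAP5SA. In A431 the gene was near the floor, at 10 counts in siCTRL, 30, 17 and 12 in siYAP, 5 in empty vector and 0 in each YAP5SA library. Taken against a floor of 3 counts over the group, empty vector was at least 2.06-fold higher than YAP5SA in A431. Over both lines MMP12 was called with siYAP at 0.94 ± 0.26 (SE, FDR = 0.0359), but leaving out any 1 of the 6 siYAP libraries gave an FDR of 0.0524 to 0.0772. Over both lines it was also called with YAP5SA, where the fitted fold change depends on the prior count because A431 YAP5SA had no counts.

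MMP13, collagenase-3, was at 39.4 CPM in HaCaT siCTRL, 103, 106 and 103 CPM in siYAP, 92.7 CPM in empty vector and 21.6, 4.85 and 6.38 CPM in YAP5SA. The YAP5SA libraries lay below every other HaCaT library. The log2 fold change with YAP5SA was -3.08 ± 0.72 (SE, FDR = 0.0173). Without YAP5SA replicate 3 it was -2.81 at an FDR of 0.0505. In A431 MMP13 was at 24.5 CPM in siCTRL, 35.3, 44.2 and 32.8 CPM in siYAP, 5.65 CPM in empty vector and 6.03, 0.695 and 0.945 CPM in YAP5SA. YAP5SA replicate 1 lay above the empty vector library in that line, and the other YAP5SA libraries lay below it. Over both lines the change with YAP5SA was -2.14 ± 0.59 at an FDR of 0.0723. It was called at -2.91 (FDR = 0.00828) without A431 YAP5SA replicate 1 and at -2.63 (FDR = 0.00961) without HaCaT YAP5SA replicate 1. The siYAP libraries lay above siCTRL in both lines, with 1.01 ± 0.60 over both (FDR = 0.297).

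MMP1, interstitial collagenase, was at 3.06 CPM in HaCaT siCTRL, 9.95, 11.8 and 7.44 CPM in siYAP, 70.1 CPM in empty vector and 34.998, 112 and 32.1 CPM in YAP5SA. YAP5SA replicate 2 lay above the empty vector library and the other YAP5SA libraries lay below it. In A431 the values were 0.637 CPM in siCTRL, 1.85, 3.41 and 2.45 CPM in siYAP, 1.15 CPM in empty vector and 1.03, 0.817 and 0.417 CPM in YAP5SA. Every siYAP library lay above its siCTRL in both lines, and the log2 fold change over both was 1.82 ± 0.59 (SE, FDR = 0.0577), which did not pass the threshold. DESeq2 gave 1.84 at an adjusted p of 0.0138. When siCTRL and empty vector were merged as controls, the HaCaT value turned to -1.92 and that over both lines to -0.21, as the HaCaT empty vector library was at 70.1 CPM. The change with YAP5SA was -0.23 ± 0.56 in HaCaT (FDR = 0.808) and -0.66 ± 0.90 in A431 (FDR = 0.896).

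MMP10, stromelysin-2, was at 5.90 CPM in HaCaT siCTRL, 2.87, 1.99 and 3.01 CPM in siYAP, 1.40 CPM in empty vector and 0.948, 2.12 and 0.536 CPM in YAP5SA. In A431 it had 0 counts in both control libraries, 6, 11 and 2 in siYAP and 3, 0 and 1 in YAP5SA. HaCaT siCTRL was at least 40.1-fold higher than A431 siCTRL, and HaCaT empty vector at least 10.2-fold higher than A431 empty vector, each against a floor of 3 counts in the A431 library. All 3 siYAP libraries lay below siCTRL in HaCaT, with -1.16 ± 0.70 (SE, FDR = 0.389). The logCPM of MMP10 was 0.306, so it could not be called in any comparison. MMP1 and MMP10 are both overlapped by WTAPP1 on the opposite strand in the GENCODE annotation. WTAPP1 had at most 28 counts in a library, and the sources used here do not say whether counting used strand.

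Promoter windows of 4 members, MMP10, MMP14, TIMP1 and TIMP3, were in the RefSeq table (250 bases before to 50 after the start, build GRCh38.p14). They were searched on both strands for AP-1 (TGANTCA), the site of FOS and JUN factors, and for TEAD (GGAATG), the site of the factors through which YAP binds DNA. MMP10 alone held a match, to AP-1, which starts 67 bases before the transcription start. The 30 bases around it are shown because it was the only match in these windows, with the match in capitals, on the minus strand at chr11:102780677-102780706.
MMP10: aaacacatgcaTGAATCAtactgttggtga
Of all 35116 windows, 7.71% held the AP-1 letters and 14% the TEAD letters. A match is a description of the letters, not of binding.

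MMP2, gelatinase A, was at 28.9 CPM in A431 siCTRL, 47.7, 48.6 and 51.3 CPM in siYAP, 21.9 CPM in empty vector and 22.5, 18.8 and 18.9 CPM in YAP5SA. In HaCaT it was at 42.7 CPM in siCTRL, 51.8, 68.5 and 68.8 CPM in siYAP, 27.7 CPM in empty vector and 40.8, 25.5 and 29.9 CPM in YAP5SA. The siYAP libraries lay above siCTRL in both lines, and those of YAP5SA overlapped the empty vector level in both. Over both lines the log2 fold change with siYAP was 0.67 ± 0.17 (SE, FDR = 0.0236), whereas within A431 it was 0.77 ± 0.25 (FDR = 0.0872) and within HaCaT 0.56 ± 0.24 (FDR = 0.209). Neither line passed the threshold alone. MMP9, gelatinase B, had 0 counts in every A431 library, and in HaCaT 0 counts in siCTRL, 0, 0 and 3 in siYAP, 3 in empty vector and 2, 70 and 6 in YAP5SA. Most of its counts came from HaCaT YAP5SA replicate 2, the library with the most YAP1 at 22255 CPM.

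MMP14, the membrane type 1 protease, was at 415 CPM in A431 siCTRL, 455, 493 and 515 CPM in siYAP, 397 CPM in empty vector and 379, 429 and 402 CPM in YAP5SA. In HaCaT it was at 288 CPM in siCTRL, 258, 251 and 276 CPM in siYAP, 157 CPM in empty vector and 206, 211 and 180 CPM in YAP5SA. The siYAP libraries lay above siCTRL in A431 and below it in HaCaT. Neither change passed the threshold, at 0.23 ± 0.14 (FDR = 0.344) and -0.14 ± 0.13 (FDR = 0.639). With YAP5SA the HaCaT libraries all lay above empty vector, at 0.34 ± 0.14 (FDR = 0.105).

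TIMP1 was at 54.1 CPM in A431 siCTRL, 89.2, 94.5 and 105 CPM in siYAP, 89.9 CPM in empty vector and 104, 72.0 and 74.6 CPM in YAP5SA. In HaCaT it was at 36.3 CPM in siCTRL, 49.99, 52.6 and 44.5 CPM in siYAP, 33.7 CPM in empty vector and 71.4, 62.5 and 68.0 CPM in YAP5SA. All HaCaT YAP5SA libraries lay above every other HaCaT library, while the A431 YAP5SA libraries spanned the empty vector level. The rise with siYAP was 0.83 ± 0.20 in A431 (SE, FDR = 0.0325) and 0.63 ± 0.14 over both lines (FDR = 0.0122). The A431 call was lost on leaving out any 1 of its siYAP libraries, with FDRs of 0.0533 to 0.0919. In HaCaT the rise with YAP5SA was 1.0003 ± 0.20 (FDR = 0.0106), and over both lines it was 0.45 ± 0.14 (FDR = 0.0986), which was called at 0.35 (FDR = 0.0498) without A431 YAP5SA replicate 1. TIMP1 is overlapped by SYN1, which is on the opposite strand and had at most 115 counts.

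TIMP2, the inhibitor that also takes part in proMMP2 activation, was at 156 CPM in A431 siCTRL, 177, 179 and 186 CPM in siYAP, 141 CPM in empty vector and 131, 107 and 111 CPM in YAP5SA. In HaCaT it was at 103 CPM in siCTRL, 159, 136 and 176 CPM in siYAP, 36.9 CPM in empty vector and 54.0, 25.9 and 52.7 CPM in YAP5SA. Its siYAP libraries lay above siCTRL in both lines. No change against a matched control passed the threshold, the widest being 0.60 ± 0.31 with siYAP in HaCaT (FDR = 0.299). TIMP2 is overlapped on its own strand by CEP295NL.

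TIMP3, which binds to the extracellular matrix, was at 610 CPM in A431 siCTRL, 481, 526 and 508 CPM in siYAP, 266 CPM in empty vector and 283, 222 and 223 CPM in YAP5SA. In HaCaT it was at 319 CPM in siCTRL, 236, 181 and 254 CPM in siYAP, 34.5 CPM in empty vector and 36.4, 13.7 and 21.3 CPM in YAP5SA. The siYAP libraries lay below siCTRL in both lines, and both vector groups lay below both siRNA groups of their line. Over both lines the change was -0.39 ± 0.25 with siYAP (FDR = 0.328) and -0.33 ± 0.25 with YAP5SA (FDR = 0.462). In HaCaT alone YAP5SA gave -0.53 ± 0.36 (FDR = 0.326), which became a call at -0.98 (FDR = 0.0163) without YAP5SA replicate 1. TIMP3 is overlapped by SYN3, on the opposite strand, which had at most 20 counts.

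**Figure D2:**
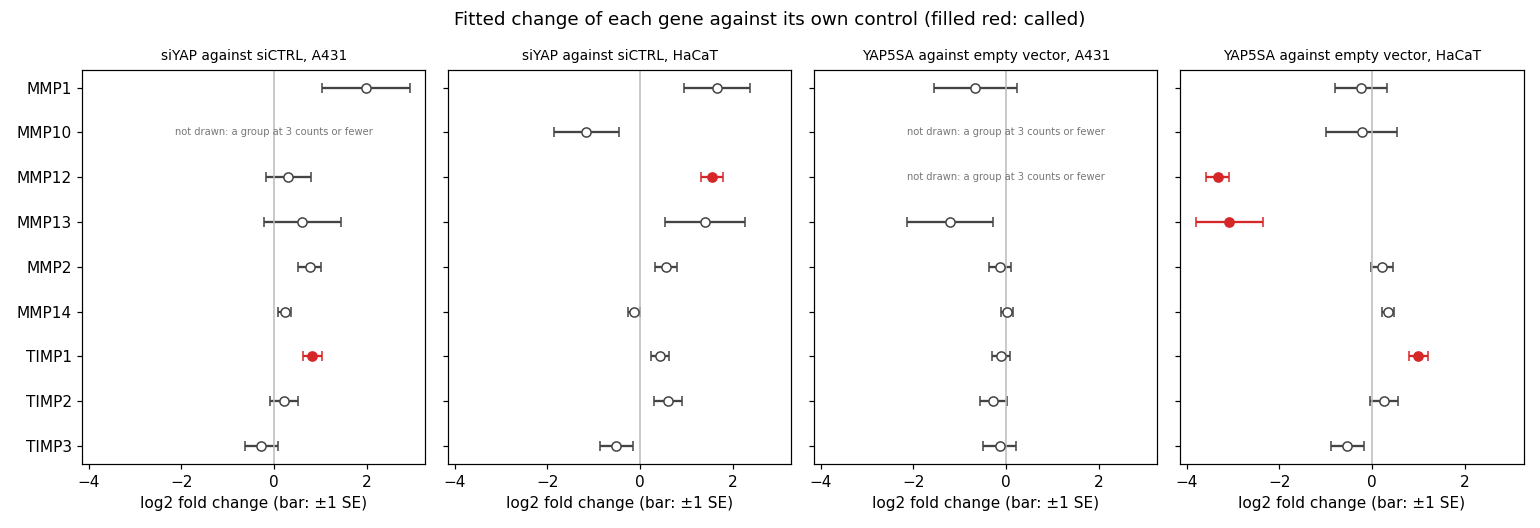
Fitted log2 fold change of the 9 tested members against their own control, with bars of 1 SE, in each line and arm. Filled red points passed the threshold, which were TIMP1 with siYAP in A431, MMP12 with siYAP in HaCaT, and MMP12, MMP13 and TIMP1 with YAP5SA in HaCaT. Values with a group at 3 counts or fewer are not drawn.

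Whether A431 and HaCaT differed in their response was tested with an interaction term. For siYAP 0 members were called, also by DESeq2, where 0.170% of all genes were, and 1 member, MMP10, had an unadjusted p under 0.05 (0.0293), with A431 siCTRL at 0 counts. For YAP5SA 0 members were called, where 0.0886% of all genes were. TIMP1 came nearest, with a YAP5SA effect 1.11 ± 0.27 higher in HaCaT than in A431 (SE, unadjusted p = 0.00138, FDR = 0.0663). DESeq2 called that difference at an adjusted p of 0.00861, and it was called at an FDR of 0.0101 without A431 YAP5SA replicate 1, at 0.0461 without HaCaT YAP5SA replicate 2 and at 0.0471 among genes with more than 10 counts in every library. The effects on the other members were not shown to differ between lines.

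YAP5SA and siYAP libraries were also compared directly, with 3 libraries on each side. This comparison carries the difference between vector and siRNA transfection along with that in YAP, and these cannot be told apart. In A431 7 members were called, all lower with YAP5SA, against 34.6% of all genes. MMP1 and MMP12 were low in A431, at no more than 3.41 and 0.630 CPM in a library. They met the logCPM limit because it is taken over both lines. MMP12 had 0 counts with YAP5SA and was at least 5.42-fold higher with siYAP. The log2 differences of the others were -3.94 ± 0.68 for MMP13, -1.80 ± 0.57 for MMP1, -1.29 ± 0.17 for MMP2, -1.06 ± 0.26 for TIMP3, -0.64 ± 0.21 for TIMP2 and -0.27 ± 0.09 for MMP14 (SE, n = 3 and 3). TIMP1 was not called, at -0.20 ± 0.14, and its siYAP and YAP5SA libraries overlapped. Markers were called in both directions. LUM, a fibroblast marker, was lower with YAP5SA in A431, at -2.51 ± 0.31. Of 8 epithelial and keratinocyte markers 3 were called higher, SFN, EPCAM and CDH1, and 2 lower, ITGB4 and KRT17. With 1 siYAP or YAP5SA library left out, 4 to 7 members were called, the 4 being without siYAP replicate 2, siYAP replicate 3 or YAP5SA replicate 3. As a difference of differences, in which YAP5SA minus empty vector was set against siYAP minus siCTRL, 0 members were called, where 1.53% of all genes were.

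In HaCaT 8 members were called between YAP5SA and siYAP, against 60.0% of all genes. MMP1 was higher with YAP5SA by 2.62 ± 0.44 and TIMP1 by 0.46 ± 0.14 on the log2 scale. The lower members were MMP12 at -8.09 ± 0.22, MMP13 at -3.25 ± 0.61, TIMP3 at -3.23 ± 0.28, TIMP2 at -1.83 ± 0.22, MMP2 at -0.97 ± 0.17 and MMP14 at -0.40 ± 0.10. Markers moved in the same comparison. Of 8 epithelial and keratinocyte markers 5 were called higher with YAP5SA, with KRT5 at 1.87 ± 0.28 and KRT14 at 1.44 ± 0.22. The 2 called lower were ITGB4 and CDH1. Of the 3 tested fibroblast markers 2 were called lower, DCN, with at most 3 counts in a YAP5SA library, and LUM, with at most 4. All 8 fibroblast markers summed to 21.5 to 27.9 CPM with siYAP and 0.861 to 1.90 CPM with YAP5SA, and their HaCaT controls to 22.3 CPM in siCTRL and 0.669 CPM in empty vector. The part of these markers in the member values was not tested. As a difference of differences, 2 members were called, where 9% of all genes were. On that scale MMP1 turned to -1.89 and MMP14 to 0.48, and TIMP3 was at -0.02.

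HaCaT and A431 were then compared over the mean of the 4 treatments, a difference that does not use the treatment effects. Of the 9 tested members 8 were called, against 60.6% of all genes. The count filter over both lines also keeps genes that are high in 1 line only. MMP12, with at most 30 counts in an A431 library, is such a gene. The members higher in HaCaT were MMP12, MMP1 with a log2 difference of 4.12 ± 0.40 (SE, FDR = 8.44e-07), MMP13 with 2.09 ± 0.44 (FDR = 0.000799) and MMP2 with 0.48 ± 0.12 (FDR = 0.00244). Those lower in HaCaT were TIMP3 at -2.10 ± 0.19 (FDR = 4.64e-07), TIMP2 at -1.03 ± 0.15 (FDR = 4.18e-05), MMP14 at -0.95 ± 0.07 (FDR = 4.47e-08) and TIMP1 at -0.82 ± 0.10 (FDR = 5.82e-06). The MMP12 difference is set partly by the A431 YAP5SA libraries at 0 counts, so the levels stand in its place, at 76.4 CPM in HaCaT siCTRL against 0.490 CPM in A431 siCTRL. MMP10 had an FDR of 2.96e-06 but a logCPM under 1. These means over treatments cover unequal levels. MMP1 had means of 2.57 CPM in A431 and 9.72 CPM in HaCaT with siYAP, and 0.756 and 59.7 CPM with YAP5SA. TIMP3 had means of 505 CPM in A431 and 224 CPM in HaCaT with siYAP, and 242 and 23.8 CPM with YAP5SA.

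To compare levels between genes, CPM was divided by the length in kb of 1 transcript per gene, the one with the longest coding sequence in GENCODE v29. On this scale MMP14 led in A431 siYAP at 131 CPM per kb, in empty vector at 106 and in YAP5SA at 108, and TIMP3 led in A431 siCTRL at 133. In HaCaT siCTRL MMP14 came first at 77.1 CPM per kb and TIMP3 next at 69.3. MMP12 led in HaCaT siYAP at 120, MMP13 in HaCaT empty vector at 63.0 and TIMP1 in HaCaT YAP5SA at 75.5. The leading gene of the family thus differed in each of the 4 HaCaT groups. The lead of MMP14 over TIMP3 in siCTRL was narrow, though, and siCTRL and empty vector were 1 library each. In siYAP the genes after MMP12 were MMP13 and MMP14, close to each other at 70.8 and 70.1 CPM per kb.

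The sum of the 7 MMPs and that of the 3 TIMPs per kb gave a transcript ratio for each library. In A431 the TIMP sum exceeded the MMP sum in all 8 libraries, by 1.31 to 1.91 times. In HaCaT the ratio was 0.860 in siCTRL, 0.543, 0.484 and 0.520 in siYAP, 0.361 in empty vector and 1.03, 0.637 and 1.23 in YAP5SA. No HaCaT library reached the lowest A431 ratio. MMP14 made up 74.4% to 95.1% of the MMP sum in A431. In HaCaT its share was 47.9% in siCTRL, 24.0% to 25.1% in siYAP, 27.4% in empty vector and 45.0% to 62.1% in YAP5SA. TIMP3 made up 56.2% of the TIMP sum in A431 siCTRL, 39.6% to 42.4% in siYAP, 29.3% in empty vector and 28.7% to 30.5% in YAP5SA. In HaCaT its share was 50.1% in siCTRL, 28.99% to 36.0% in siYAP, 13.5% in empty vector and 3.71% to 7.70% in YAP5SA. These are ratios of transcripts and say nothing of protein or activity.

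**Figure D3:**
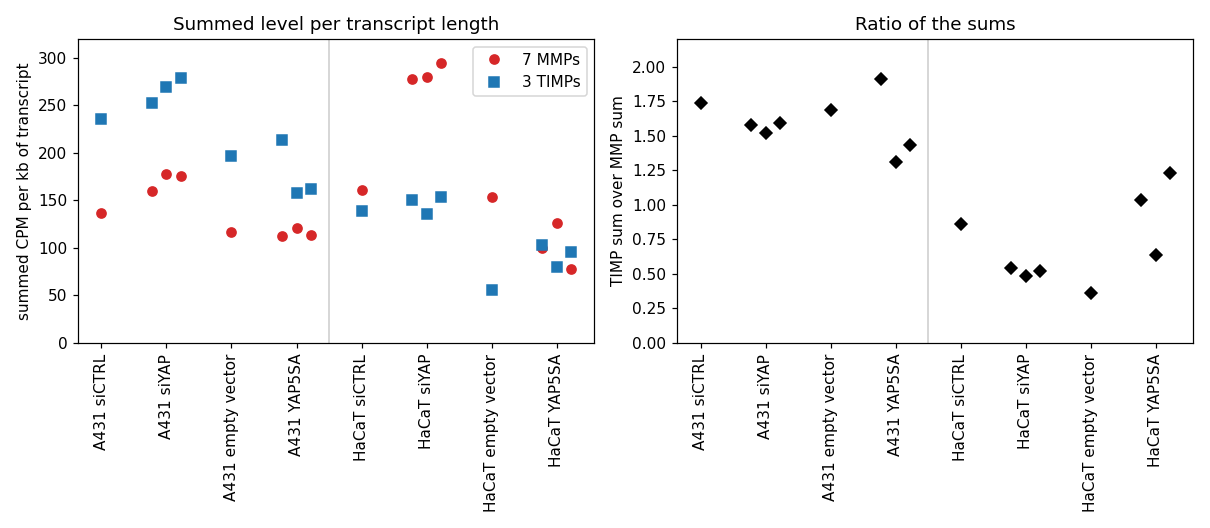
Summed CPM per kb of the 7 MMPs (circles) and the 3 TIMPs (squares), left, and the TIMP sum over the MMP sum, right, in each of the 16 libraries. All A431 ratios are at 1.31 or above, and the HaCaT siYAP libraries have the highest MMP sums, at 278, 280.3 and 295 CPM per kb.

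MMP1, MMP10, MMP12 and MMP13 lie in a cluster on chromosome 11 that begins a few genes from YAP1. The order of protein-coding genes in the RefSeq annotation is CEP126, CFAP300, YAP1, BIRC3, BIRC2, TMEM123, MMP7, MMP20, MMP27, MMP8, MMP10, MMP1, MMP3, MMP12, MMP13, DCUN1D5 and DYNC2H1. MMP2 is on chromosome 16, MMP9 on 20, MMP14 on 14, TIMP1 on X, TIMP2 on 17 and TIMP3 on 22. Among the genes around the cluster, the apoptosis inhibitors BIRC3 and BIRC2 between YAP1 and the MMPs were not called in either arm, with -0.53 ± 0.25 and 0.34 ± 0.12 for siYAP over both lines. With siYAP, BIRC2 over both lines and BIRC3 in A431 had an unadjusted p under 0.05. Both were called between YAP5SA and siYAP in HaCaT. DCUN1D5, beside MMP13, was called in neither arm but had an unadjusted p under 0.05 with siYAP over both lines. It was called between YAP5SA and siYAP in both lines. DYNC2H1, a dynein heavy chain of cilia on the far side, rose by 0.69 ± 0.09 with siYAP over both lines (SE, FDR = 0.000503) and had -0.37 ± 0.09 with YAP5SA (FDR = 0.0485). TMEM123 was called with siYAP in A431 at -0.66 ± 0.18 (FDR = 0.045). MMP7, matrilysin, had -1.21 ± 0.43 with siYAP and -0.79 ± 0.37 with YAP5SA over both lines. It was called in neither, though its unadjusted p was under 0.05 in each. Between YAP5SA and siYAP, DYNC2H1 was also called in both lines, TMEM123 in A431 and MMP7 in HaCaT. In that comparison 34.6% of all genes were called in A431 and 60.0% in HaCaT. MMP3, stromelysin-1, had at most 59 counts, in HaCaT YAP5SA replicate 2.

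**Figure D4:**
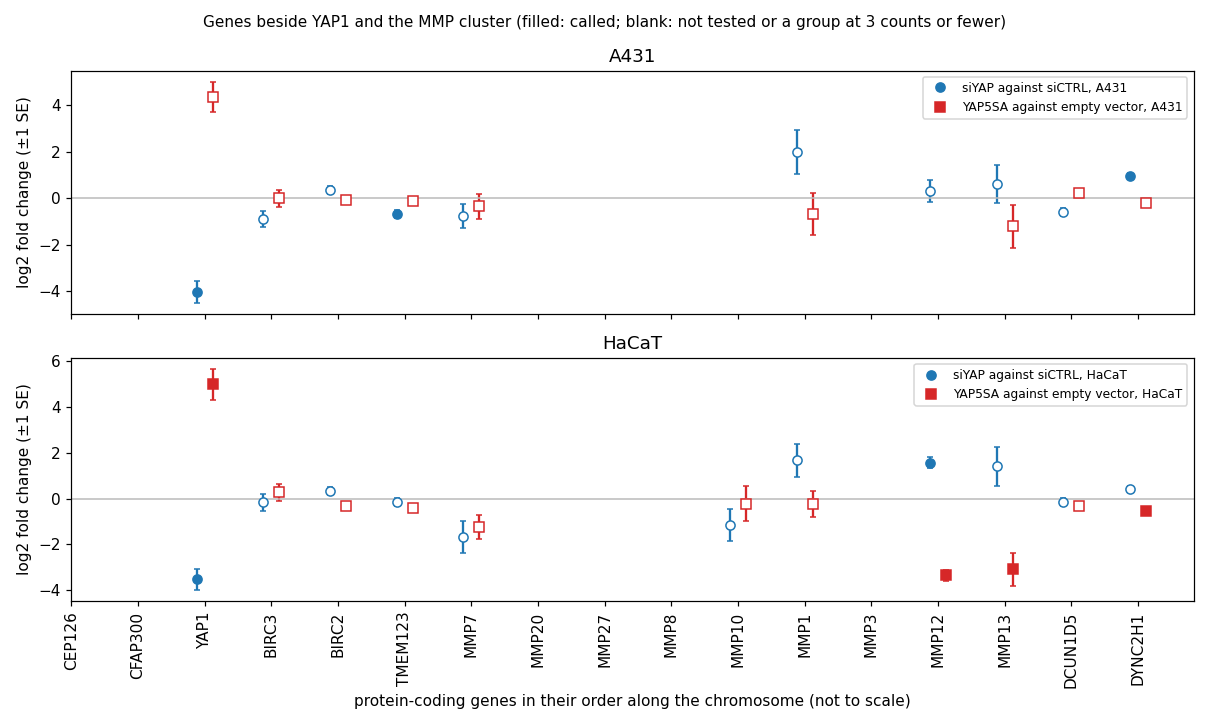
Log2 fold change with siYAP (blue) and YAP5SA (red) of the genes beside YAP1 and the MMP cluster, in their order along chromosome 11 and not to scale, in A431 (top) and HaCaT (bottom), with bars of 1 SE. Filled points passed the threshold. MMP12 and MMP13 have negative values with YAP5SA in HaCaT at -3.34 and -3.08, whereas BIRC3 and BIRC2 lie between -0.34 and 0.27 there.

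Other genes of the system were counted in lists written from textbook knowledge. Over all tested genes, 13.0% were called with siYAP over both lines, 2.04% with YAP5SA over both lines and 60.6% between the lines. Of the 17 other MMPs 7 were tested, and 0 were called by edgeR with siYAP over both lines or with YAP5SA over both lines, where 3 in each had an unadjusted p under 0.05. Their median log2 fold changes with genes at the floor set to their bound were 0.16 and -0.08. Between the lines MMP28, epilysin, was higher in HaCaT by 1.73 ± 0.22 (FDR = 1.01e-05), and MMP15 and MMP7 were lower, at -2.33 ± 0.14 (FDR = 1.04e-08) and -2.04 ± 0.30 (FDR = 3.81e-05). Of the 8 other inhibitors 6 were tested. SPOCK1, a testican proteoglycan, rose with siYAP over both lines by 1.39 ± 0.18 (FDR = 0.000393), the single call of that list. There 4 of the 6, SPOCK1 among them, had an unadjusted p under 0.05. All 6 had positive fitted values, 3 of them with a group at the floor. With YAP5SA over both lines 0 were called by edgeR and 0 had an unadjusted p under 0.05. Within HaCaT, TFPI2, a Kunitz-type inhibitor, was at 21.1 CPM in siCTRL, 4.53, 2.43 and 4.26 CPM in siYAP, 16.2 CPM in empty vector and 59.6, 149 and 72.3 CPM in YAP5SA. It was called lower with siYAP in that line, at -2.48 ± 0.44 (FDR = 0.0083), and higher with YAP5SA, at 2.53 ± 0.52 (FDR = 0.0124). Between the lines TFPI2 and SPOCK1 were higher in HaCaT, SPOCK1 by 0.29 ± 0.12 (FDR = 0.0374), and RECK, a membrane-anchored inhibitor, was lower, at -1.96 ± 0.22 (FDR = 3.5e-06). TFPI2 had at most 2 counts in any A431 library, against 50 to 5174 in HaCaT, so it passed the count filter through HaCaT alone.

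ADAM proteases, which shed cell surface proteins, were tested for 8 of 12 members. The shares of all tested genes called were 13.0% with siYAP over both lines, 2.04% with YAP5SA over both lines and 60.6% between the lines. With siYAP over both lines ADAM8 rose by 1.04 ± 0.18 (FDR = 0.00266) and ADAM19 by 0.69 ± 0.21 (FDR = 0.0439), and 3 fell, ADAM17 with -0.66 ± 0.10 (FDR = 0.0015), ADAM10 with -0.44 ± 0.12 (FDR = 0.0346) and ADAM9 with -0.36 ± 0.09 (FDR = 0.0176). With YAP5SA over both lines ADAM8 rose by 1.29 ± 0.18 (FDR = 0.00613) and ADAM19 by 1.05 ± 0.21 (FDR = 0.0329), and none fell. For ADAM8 every treated library lay above its control in both lines. Fitted by line, ADAM19 was called in A431 but not HaCaT with siYAP, and in HaCaT but not A431 with YAP5SA. With siYAP it was at 13.2, 14.4 and 14.9 CPM against 5.73 CPM in A431 and at 20.7, 21.8 and 18.2 CPM against 19.2 CPM in HaCaT. With YAP5SA it was at 4.56, 3.84 and 3.59 CPM against 3.72 CPM in A431 and at 92.4, 177 and 129 CPM against 33.2 CPM in HaCaT. The difference of its effect between the lines was not called for siYAP (FDR = 0.26) or for YAP5SA (FDR = 0.0589). Between the lines 3 were higher and 3 lower in HaCaT, with ADAM19 at 2.62 ± 0.15 and ADAM9 at -1.03 ± 0.06 the widest. Of the 19 ADAMTS proteases 10 were tested and 0 were called by edgeR in either arm over both lines, with 0 at an unadjusted p under 0.05 for siYAP and 2 for YAP5SA. Between the lines ADAMTS5, ADAMTS1 (3.24 ± 0.21) and ADAMTS6 (1.25 ± 0.32) were higher in HaCaT and ADAMTS15 was lower (-3.02 ± 0.28). ADAMTS5 had 0 counts in every A431 library and passed the count filter through HaCaT alone.

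Of 15 activators and partners of MMPs 14 were tested, and with siYAP over both lines 3 rose and 3 fell, against 13.0% of all genes called. LRP1, a receptor that takes up MMPs and TIMPs, rose by 0.98 ± 0.29 (FDR = 0.0423), the convertase PCSK5 by 0.85 ± 0.16 (FDR = 0.00499) and SDC1, a syndecan, by 0.32 ± 0.08 (FDR = 0.0227). LCN2, which binds MMP9, was at -1.12 ± 0.24 (FDR = 0.00902), with the convertases PCSK7 at -0.67 ± 0.20 (FDR = 0.0459) and PCSK6 at -0.59 ± 0.14 (FDR = 0.0183). With YAP5SA over both lines THBS1, thrombospondin-1, rose by 1.44 ± 0.22 (FDR = 0.00826), the single call, against 2.04% of all genes. Between the lines 3 were higher and 6 lower in HaCaT, against 60.6% of all genes called. The widest were LCN2 at -2.17 ± 0.19, PCSK7 at 2.05 ± 0.15, THBS1 at 1.96 ± 0.15, PCSK5 at 1.25 ± 0.11 and BSG, an inducer of MMPs, at -1.03 ± 0.08. Within HaCaT 5 partners were called with YAP5SA, against 13.6% of all genes. Of these THBS1, FURIN, PCSK6 and BSG were higher and PCSK5 lower. FURIN, which cuts proMMP14, was at 30.2 CPM in HaCaT empty vector and 62.9, 58.4 and 87.5 CPM in YAP5SA, with 1.21 ± 0.26 (FDR = 0.0116). It was not called over both lines, at 0.48 ± 0.18 with siYAP and 0.55 ± 0.17 with YAP5SA.

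Genes with the most similar pattern to each tested member were found by Pearson's r of log2(CPM + 0.5) over the 16 libraries after the mean of each line was taken out. The libraries share treatments and lines, so r is a description. MMP12 was most like TP53INP1 and EXOC4 (r = 0.987 and 0.986), TIMP3 like FBXL20 and FOXA1 (0.986 and 0.986), TIMP2 like CACNG4 and BCAM (0.984 and 0.980) and MMP2 like PCNX and MADD (0.976 and 0.971). MMP14 was most like PLEKHM1P and ARRB2 (0.963 and 0.943), MMP13 like RNF135 and CCT6P3 (0.951 and 0.951), MMP1 like OAT and INHBA (0.931 and 0.930), MMP10 like GABRP and SNAP23 (0.910 and 0.890) and TIMP1 like OAZ2 and EMP3 (0.897 and 0.884). Among the members, MMP12 and TIMP3 had r = 0.933, TIMP2 and TIMP3 0.926, MMP12 and TIMP2 0.902, and MMP1 and TIMP3 -0.748.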

How the data were processed

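RNA-seq of 16 libraries was taken from 1 deposited table of RSEM estimated counts per gene symbol, neither scaled nor filtered by the authors. Per the methods, the authors trimmed paired reads to 75 bases and mapped them to RefSeq genes. The submitters' processing notes name RSEM 1.2.11, edgeR and hg19. The methods give another RSEM version and biological triplicates, whereas the labels give single controls and do not say that replicates were separate cultures, so p-values may measure technical spread.

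Counts were rounded. The tested genes were the 14673 whose mean over the libraries exceeded 10 counts. The quasi-likelihood test of edgeR 4.0.16 (R 4.3.3, limma 3.58.1) was applied to 1 model of 8 groups with TMM, 8 residual degrees of freedom and 0.125 as prior count. FDR is the Benjamini-Hochberg adjusted p over all tested genes, and SE is the size of the log2 fold change over the root of F. A group with at most 3 counts in each library is at the floor, and a fold against it is a lower bound at 3 counts per library. The test was checked on simulated data with 200 changed genes. Alternatives included DESeq2 1.42.0. Summaries and plots used Python 3.11.15, numpy 2.4.6, pandas 2.3.3 and matplotlib 3.10.9. The SE rests on the spread between libraries of the treated groups, as each control is 1 library. Libraries held 18115624 to 46791673 pairs.

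The members, lists and tests were chosen with earlier results of these data known. Named genes are the members, YAP1 and marker genes, from each list the called genes with the 5 largest log2 fold changes per comparison, and the 2 most similar genes per member. FURIN, the within-line values of TFPI2, ADAM19 and partner genes, MMP3, TMEM123 and the neighbours BIRC2, BIRC3, DCUN1D5 and MMP7 were named after their values were seen. The table lists 28 symbols turned into dates, kept in totals and not named. Reference sequences are of GRCh38.p14, not the authors' build, so no other coordinates are given.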

Additional observations from a re-analysis of the deposited data

How the results depend on the processing

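For 56 pairs of member and comparison with an unadjusted p under 0.2 and no group at the floor, 620 of 695 values under the alternatives kept direction and side of the threshold, 43 lost a call, 20 gained one and 12 reversed. The counts of members called, with the reported value in parentheses, moved as follows. For siYAP in A431 (1) DESeq2 gave 2, merged controls 0, and leaving out any siYAP library 0. For siYAP in HaCaT (1) a filter of more than 10 counts in every library gave 0 and merged controls 3. For YAP5SA over both lines (1) no filter gave 2, the stricter filter 0, DESeq2 2, merged controls 4, and leaving out 1 library 1 to 3, with 3 without A431 replicate 1 and 2 without HaCaT replicate 1. For YAP5SA against siYAP in A431 (7) merged controls gave 3, each line alone 4, leaving out 1 library 4 to 7, and the difference of differences 0, which in HaCaT (8) gave 2. For siYAP over both lines (3) the alternatives gave 2 to 4, with 2 on leaving out any siYAP library, where the MMP12 call was lost, and for YAP5SA in HaCaT (3) 2 to 4, with 2 without replicate 3, where the MMP13 call was lost. For the YAP5SA effect between lines (0) the stricter filter, DESeq2, and leaving out A431 replicate 1 or HaCaT replicate 2 each gave 1. The stricter filter removes MMP12, since A431 YAP5SA had no counts. With each line fitted alone, the logCPM limit is taken over the libraries of that line. The other causes were not tested.

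With siCTRL and empty vector merged as controls, siYAP values reversed for MMP1 in HaCaT (-1.92) and over both lines (-0.21), and for TIMP3 in HaCaT (0.34) and over both lines (0.27), and YAP5SA values for MMP14 in HaCaT (-0.16) and over both lines (-0.085). The differences between lines reversed for TIMP1 with siYAP (0.070) and MMP14 with YAP5SA (-0.15). With the difference of differences, YAP5SA against siYAP reversed for TIMP3 in A431 (0.14) and for MMP1 (-1.89), MMP10 (0.94) and MMP14 (0.48) in HaCaT.

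The replicate block on the 12 treated libraries kept 7 members called in A431 and 8 in HaCaT for YAP5SA against siYAP, as did the same libraries without the block, an alternative chosen after seeing the data. Same-numbered siYAP and YAP5SA libraries had correlations of deviations of -0.064 to 0.062 in A431 and 0.005 to 0.111 in HaCaT, and not every library correlated best with its own number. Deviations from a group mean constrain each other, so these correlations cannot decide whether the numbers pair the samples. Precision is limited by the single control libraries and, for MMP9, MMP10 and A431 MMP12, by counts near 0.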
